A study of Mus musculus with 4 samples.

Results

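The genes described here are 10 that p53 controls or that encode it: Trp53, Cdkn1a, Mdm2, Ccng1, Perp, Plk2, Btg2, Bax, Sesn1 and Trp53inp1. They were found as every probe set of the array whose single gene symbol in GEO's annotation is one of them, which gave 19 probe sets of 45101 on the array. These belong to 8 of the 10 genes, among 18193 genes the array names in this way; Trp53 and Bax had no such probe set and were not analysed here. The tissue was testis of 129 strain mice taken at 2 dpp (days post partum) and kept in organ culture for 24 h. Control samples received dimethyl sulfoxide, the vehicle, and treated samples received WIN 18,446 at 1 µM, an inhibitor of the retinaldehyde dehydrogenases that make retinoic acid. RNA was measured on Affymetrix Mouse Genome 430 2.0 microarrays, 2 arrays per group, 4 in all.

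The transcription factor p53 is held low in healthy cells by the ubiquitin ligase Mdm2 and accumulates after DNA damage and other stress. It then binds sites in its target genes, which stop the cell cycle (Cdkn1a, Btg2), trigger cell death (Perp, Bax, Trp53inp1), limit growth signalling (Sesn1), act at the centrosome (Plk2) or feed back on p53 itself (Mdm2, Ccng1). Several are also induced by other routes: Btg2 and Plk2 are early response genes of growth signals, and Perp is a target of the p53 relative p63 and a protein of desmosomes, the adhesive junctions between cells. In the testis, p53 is known for its part in the death of germ cells.

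Promoter windows of RefSeq (build GRCm38.p6), cut to the 250 bases before each start, were held for 6 of the 8 measured genes, 8 windows in all; Perp and Trp53inp1 were not among them. A full p53 consensus site, 2 adjacent half-sites with at most 1 mismatch over 20 bases, was searched on both strands. The mismatch was not allowed at the fixed C or the fixed G of either half-site. It stood in 2 of the 8 windows, of Cdkn1a and Ccng1, and in 19 of 32817 windows of all genes (0.0579%). The p53 half-site alone, which overlaps the full site, was in 4 of the 8 windows and in 7.12% of all. The cyclic AMP response element TGACGTCA, which reads the same on both strands, was in 2 of the 8, of Btg2 and Plk2, and in 1.55% of all; it overlapped no p53 site there. The CArG box of serum response factor was in 0 of the 8 and in 1.47% of all. The 4 windows with a full p53 site or a TGACGTCA are shown because the genes that share a motif had unlike values: in their brightest probe sets the log2 difference between treated and control arrays was -0.04 for Ccng1 and 0.85 for Cdkn1a, and 1.67 for Btg2 and -0.89 for Plk2, of which only Plk2 passed the test. Capitals mark the full p53 site (Cdkn1a, Ccng1) or TGACGTCA (Btg2, Plk2), and each sequence runs 5′ to 3′ on the gene's strand, ending at the base before the start.
Cdkn1a, chr17:29090729-29090978, plus strand, site beginning 51 bases before the start: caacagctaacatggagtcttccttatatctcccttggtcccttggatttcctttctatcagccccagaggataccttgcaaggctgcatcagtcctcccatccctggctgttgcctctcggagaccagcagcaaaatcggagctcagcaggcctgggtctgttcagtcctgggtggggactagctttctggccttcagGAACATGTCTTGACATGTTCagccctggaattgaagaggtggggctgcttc
Ccng1, chr11:40755287-40755536, minus strand, site beginning 195 bases before the start: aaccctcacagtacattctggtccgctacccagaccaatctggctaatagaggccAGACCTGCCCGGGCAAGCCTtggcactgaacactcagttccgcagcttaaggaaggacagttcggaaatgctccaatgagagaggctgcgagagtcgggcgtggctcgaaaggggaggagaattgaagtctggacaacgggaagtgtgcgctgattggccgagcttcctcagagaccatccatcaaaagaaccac
Btg2, chr1:134079156-134079405, minus strand, element beginning 166 bases before the start: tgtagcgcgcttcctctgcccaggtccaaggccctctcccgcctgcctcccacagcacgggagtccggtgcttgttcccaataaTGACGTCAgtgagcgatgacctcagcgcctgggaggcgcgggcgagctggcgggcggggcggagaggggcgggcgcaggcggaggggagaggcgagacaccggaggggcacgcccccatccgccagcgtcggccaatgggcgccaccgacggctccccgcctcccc
Plk2, chr13:110394794-110395043, plus strand, element beginning 62 bases before the start: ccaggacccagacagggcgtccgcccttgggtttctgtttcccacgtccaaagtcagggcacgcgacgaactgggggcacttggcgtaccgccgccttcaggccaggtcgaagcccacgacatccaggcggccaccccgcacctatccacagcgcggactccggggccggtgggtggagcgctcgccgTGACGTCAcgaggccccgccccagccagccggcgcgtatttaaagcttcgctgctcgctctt
A match is a description of the letters and was not tested as a site of binding. Cdkn1a has a second start, and its window (chr17:29093519-29093768) held none of these motifs.

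Levels are log2 values, so that a difference of 1 is a 2-fold change, and all differences are WIN 18,446 minus control. Background here means 2.22, the highest reading of 27 control probe sets for bacterial RNA. The level filter kept probe sets whose 4-array mean reached 5, and limma tested these, 20895 in all, and a probe set is called where its p, adjusted over all of them by Benjamini-Hochberg, is under 0.05. Whether the 2 samples of a group were separate animals or cultures is not given in the labels; the p-values then reflect the spread of these samples alone, and that spread may be technical. Pearson's r over the tested probe sets, which are not independent replicates, was 0.992 for the control pair, 0.985 for the treated pair and 0.964 to 0.976 across groups. Treated array 1 stood apart in the 5′ control probe set of 18S ribosomal RNA, at 6.55 against 8.12 to 8.67 on the other arrays. Of the markers listed for the tissue, 8 of 8 Sertoli cell genes and 7 of 8 germ cell genes passed the level filter, the exception being Tdrd1. The list means, taken over the genes that passed alone, were 12.23 to 12.69 and 11.03 to 11.17 over the arrays. In whole tissue, fewer cells of a type and less RNA per cell cannot be told apart.

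Perp rose and Plk2 fell with WIN 18,446, and the other 6 measured genes were not called. Of the 19 probe sets 14 passed the level filter, at least 1 for each of the 8 genes. Of these 14, limma called 1 higher and 1 lower, against a background of 5.18% called among all probe sets tested (2.27% higher and 2.91% lower). In 11 of the 14 the treated values lay wholly outside the control values, with 4 higher and 7 lower; among all probe sets tested that share was 53.1% (23.8% higher and 29.3% lower). The median difference was -0.08 over the 14 member probe sets and -0.02 over all 20895. The differences ran from 2.06 for Perp to -0.89 for Plk2, 5 positive and 9 negative.

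**Figure D1:**
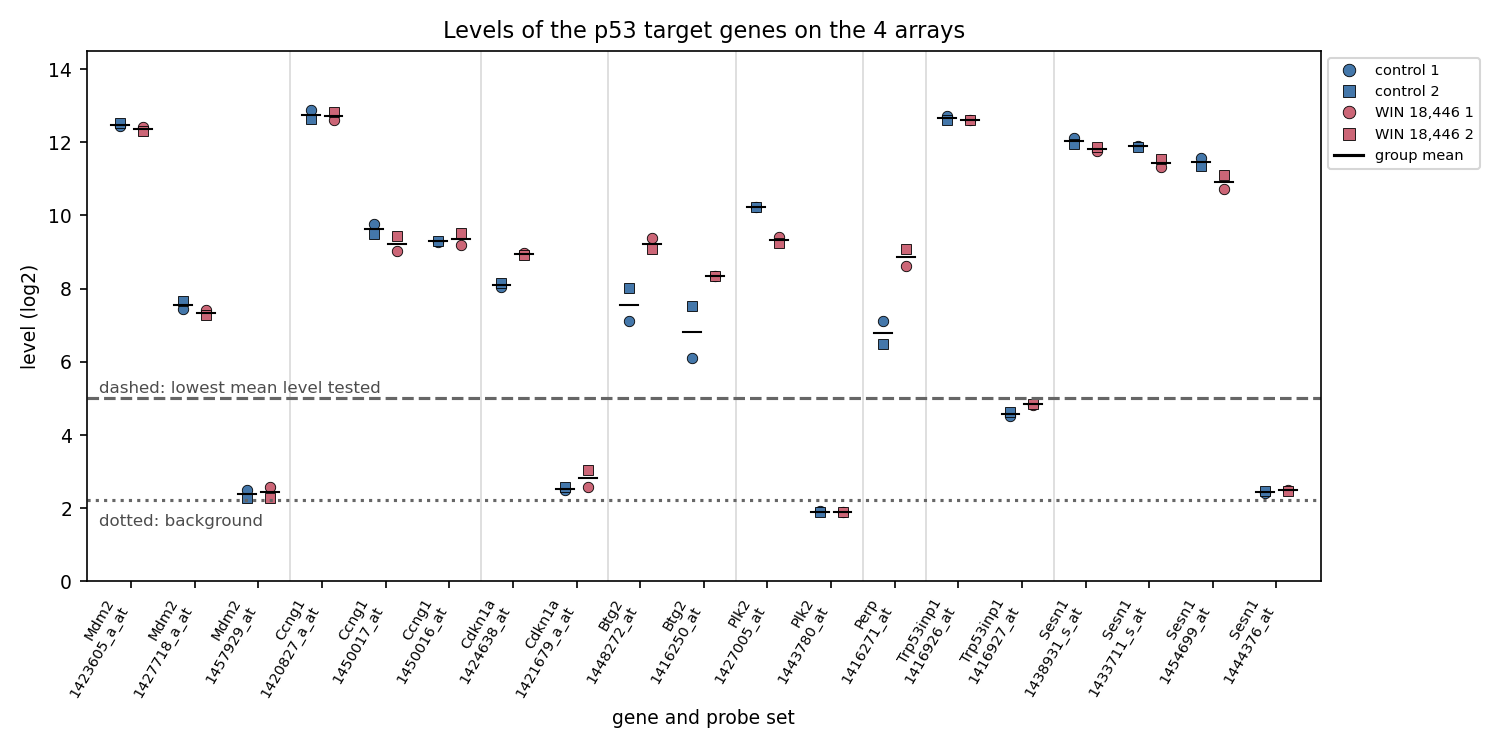
Log2 level (vertical axis) of each of the 19 probe sets of the 8 genes on the 2 control arrays (blue) and the 2 WIN 18,446 arrays (red), circles for replicate 1 and squares for replicate 2, bars for group means. Among those tested, Perp, both probe sets of Btg2 and the brighter probe set of Cdkn1a stand higher in red. In 7 others both red values lie below both blue values, with the largest difference for the brighter probe set of Plk2. The 5 probe sets under the dashed line at 5 were not tested.

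Mdm2 and Ccng1 feed back on p53. Mdm2, the ubiquitin ligase that marks p53 for destruction and is itself a p53 target, read 12.44 and 12.52 with vehicle and 12.42 and 12.31 with WIN 18,446 in its brightest probe set. The treated values were both lower, by little, and the difference was -0.11 (95% interval -0.32 to 0.09, adjusted p = 0.479, limma). A second Mdm2 probe set read 7.44 and 7.65 with vehicle and 7.42 and 7.27 with WIN 18,446, a difference of -0.20 (95% interval -0.71 to 0.30, adjusted p = 0.612). Both intervals hold 0. The third, at 2.29 to 2.59, was close to background on all 4 arrays and was not tested.

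Ccng1 encodes cyclin G1, which recruits a phosphatase to Mdm2. Its brightest probe set read 12.87 and 12.62 with vehicle and 12.59 and 12.82 with WIN 18,446, so that the groups overlapped (difference -0.04, 95% interval -0.35 to 0.27, adjusted p = 0.888). Another probe set overlapped as well, at 9.28 and 9.31 against 9.19 and 9.51 (difference 0.06, adjusted p = 0.88). The third was lower on both treated arrays, at 9.76 and 9.50 against 9.02 and 9.44, and was not called (difference -0.40, 95% interval -0.91 to 0.12, adjusted p = 0.335). The annotation gives the 3 probe sets the same database sequence, and they disagreed in sign. The Ccng1 window printed above holds a full p53 site.

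Cdkn1a, Btg2 and Plk2 act on the cell cycle, and their differences had opposite signs. Cdkn1a encodes p21, the inhibitor of cyclin-dependent kinases through which p53 halts the cycle. It read 8.04 and 8.16 with vehicle against 8.96 and 8.93 with WIN 18,446. Both treated values lay above both control values and the replicates were close together, with a difference of 0.85 (SE 0.16, 1.80-fold, 95% interval 0.44 to 1.25). The adjusted p was 0.0531, so Cdkn1a was not called. It was called in 2 alternatives, with quantile normalization again (adjusted p = 0.0397) and with a mean of at least 7 (0.0427); over all alternatives the adjusted p ran from 0.0397 to 0.351. Its other probe set, at 2.49 and 2.58 against 2.58 and 3.05, was near background and was not tested.

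Btg2 is an antiproliferative protein that binds the mRNA deadenylase complex. Its brighter probe set read 7.11 and 8.01 with vehicle and 9.38 and 9.09 with WIN 18,446. All treated values were higher, and the control arrays differed more from each other than the treated arrays did. The difference was 1.67 (SE 0.33, 3.19-fold, 95% interval 0.83 to 2.52, adjusted p = 0.0592), a size that 1.68% of the probe sets tested exceeded in either direction. The second probe set, made from the same reference transcript, read 6.12 and 7.51 against 8.34 and 8.35, with a difference of 1.53 (95% interval 0.34 to 2.72, adjusted p = 0.145). Control array 1 was the lower in both. Without it the differences were 1.22 and 0.83, and without control array 2 they were 2.12 and 2.23. The brighter probe set passed the threshold in 5 of the 8 alternatives that kept all 4 arrays, with adjusted p from 0.0278 to 0.225 over the 8; the other passed it in 0 of 8.

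Plk2, a polo-like kinase of centriole duplication and of the stress response, fell. It read 10.23 and 10.22 with vehicle and 9.42 and 9.25 with WIN 18,446. The control values were nearly equal and both treated values lay below them, with a difference of -0.89 (SE 0.13, 95% interval -1.23 to -0.55, adjusted p = 0.0329); the control level was 1.85 times the treated level. The adjusted p was above 0.05 with no level filter (0.0972; 3 of 45037 probe sets were then called), with no variance trend (0.052; 372 of 20895 called) and without any 1 of the 4 arrays (0.0503 to 0.323), while the difference stayed between -0.97 and -0.81. Fits without 1 array leave a group of 1, whose spread is taken from the pair of the other group. Without control array 1 or 2 limma called no probe set at all, so the loss of the call in those fits is not particular to Plk2. Without treated array 1 or 2 limma still called probe sets over the whole array, and the same cannot be said of those fits. The other Plk2 probe set, at 1.91 on every array, was below background. The Btg2 and Plk2 windows each hold TGACGTCA, and the differences of these genes had opposite signs.

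Perp, a membrane protein of the p53 death response and of desmosomes, had the largest difference of the 14 probe sets, and rose. It read 7.11 and 6.49 in the controls, against 8.63 and 9.09 with WIN 18,446. Both treated values lay above both control values, by more than the arrays of either group differed from each other. The difference was 2.06 (SE 0.29, 4.18-fold, 95% interval 1.31 to 2.81, adjusted p = 0.0301), and 1.01% of the probe sets tested differed by more in either direction. The array has 1 probe set for Perp, so no second one checks it. Under the settings described for Plk2, the adjusted p was 0.145 with no level filter, 0.0641 with no variance trend, 0.276 and 0.2 without control array 1 or 2, and 0.0471 and 0.0511 without treated array 1 or 2. The difference ran from 1.76 to 2.37 over the arrays left out.

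**Figure D2:**
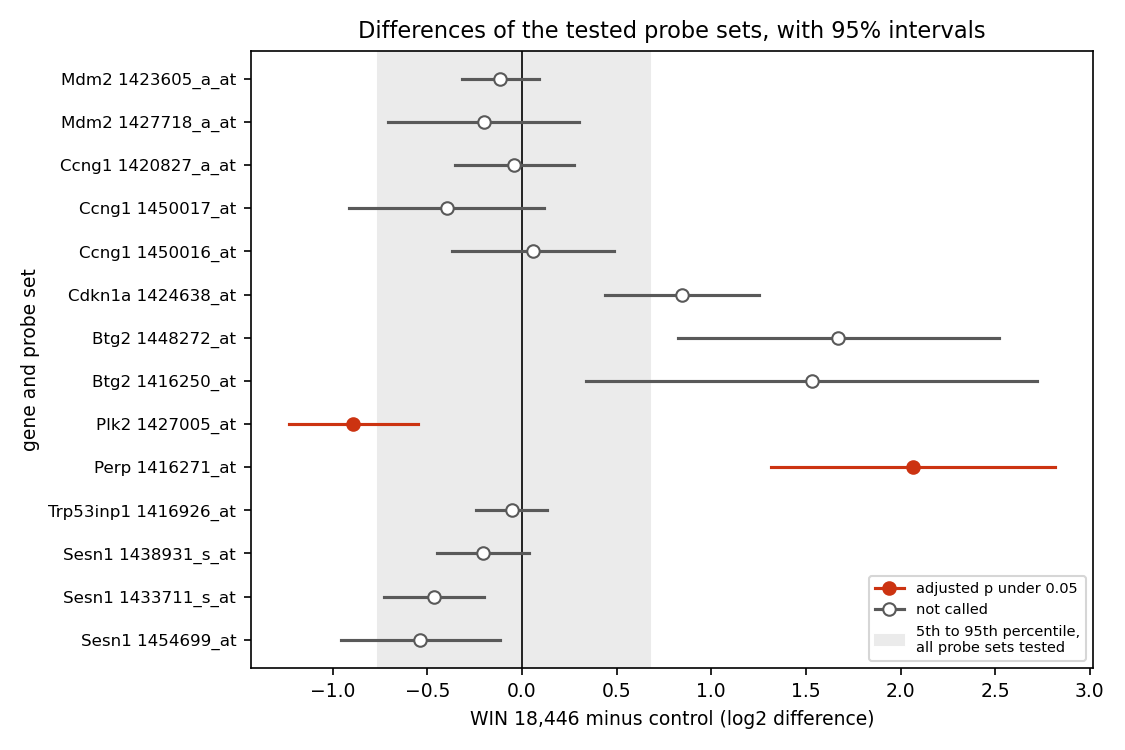
Log2 difference, WIN 18,446 minus control (horizontal axis), with its 95% interval for each of the 14 tested probe sets; filled red marks an adjusted p under 0.05 and the grey band the 5th to 95th percentile of all probe sets tested (-0.76 to 0.68). Perp (2.06) and Plk2 (-0.89) are called, and Btg2 (1.67 and 1.53) and Cdkn1a (0.85) lie above the band without being called.

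Trp53inp1, a nuclear protein that promotes p53-dependent cell death and autophagy, was not called. It read 12.71 and 12.60 with vehicle and 12.60 and 12.60 with WIN 18,446 (difference -0.06, 95% interval -0.24 to 0.13, adjusted p = 0.718). The treated arrays were nearly equal and matched control array 2. Its second probe set was higher on both treated arrays, at 4.53 and 4.63 against 4.81 and 4.86, and lay under the level filter.

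Sesn1, a sestrin that restrains the growth kinase mTORC1 under stress, was lower in all 3 tested probe sets without a call. The probe set nearest the threshold read 11.90 and 11.88 with vehicle and 11.32 and 11.53 with WIN 18,446 (difference -0.46, 95% interval -0.73 to -0.20, adjusted p = 0.0755). In a second, 11.58 and 11.34 stood against 10.74 and 11.11 (difference -0.54, 95% interval -0.96 to -0.12, adjusted p = 0.146). In the brightest, 12.10 and 11.94 stood against 11.77 and 11.86 (difference -0.21, 95% interval -0.45 to 0.04, adjusted p = 0.298). No treated value reached a control value in any of the 3, of which the first pair come from the same database sequence. The remaining Sesn1 probe set, at 2.41 to 2.50, was near background.

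In the wider p53 pathway Gtse1 and Chek1 rose and Siva1 fell, a share of calls close to that over all genes. Of 33 other p53 targets on a list, 32 had a probe set and 27 were tested, each gene by its brightest probe set; 1 rose, 1 fell and 25 were not called. Over all 10970 genes 6.4% were called, 2.94% higher and 3.46% lower, the shares to set beside the gene lists that follow. The list's median difference was -0.07, against -0.02 over all genes. Gtse1, a microtubule protein of S and G2 phase that restrains p53, rose from 6.60 and 7.13 to 8.44 and 8.39 (difference 1.55, SE 0.24, adjusted p = 0.0361). Siva1, a protein of the apoptosis pathway, fell from 12.33 and 12.35 to 11.72 and 11.80 (difference -0.59, SE 0.08, adjusted p = 0.0262). The spindle protein Ckap2 was next by p, with a difference of 0.67 (adjusted p = 0.066). Among the classical death and damage targets, Pmaip1 (Noxa) differed by 0.13, Gadd45a by -0.22, Phlda3 by -0.24, Ddb2 by 0.15 and Fas by -0.84, none of them called (adjusted p from 0.305 to 0.592); these 5 were picked with their values in view. The death gene Bbc3 (Puma), with a mean of 2.15, was too dim to test. Neither Gtse1 nor Siva1 passed the threshold with no level filter, with no variance trend, or without either control array or treated array 1.

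Among 20 regulators and partners of p53, 18 were tested, of which 1 rose, 0 fell and 17 were not called. Chek1, the kinase of the replication checkpoint, rose from 11.19 and 11.43 to 11.91 and 12.05 (difference 0.67, SE 0.12, adjusted p = 0.0441). Ppp1r13l and Ppp1r13b, which encode the p53-binding proteins iASPP and ASPP1, differed by 0.41 and -0.44 (adjusted p = 0.181 and 0.182). The list's median difference was 0.08. The paralogs Trp63 and Trp73 had mean levels of 2.36 and 2.06 in their brightest probe sets and were not tested.

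Of 20 relatives of the 10 genes 17 were tested, and only Plk4 was called. Plk4, the master kinase of centriole duplication, rose from 11.31 and 11.62 to 12.30 and 12.46 (difference 0.91, SE 0.13, adjusted p = 0.0306), while its relative Plk2 fell. The mitotic kinase Plk1 differed by 1.24 (adjusted p = 0.0855). Btg1, the nearest relative of Btg2, read 12.92 and 12.87 against 12.92 and 12.91 (difference 0.02, 95% interval -0.14 to 0.18). The interval of Btg1 lies wholly below that of the brighter Btg2 probe set, and the difference between the genes was not tested. The other inhibitors of the p21 family, Cdkn1b and Cdkn1c, differed by 0.15 and -0.57 (adjusted p = 0.394 and 0.17), and the sestrins Sesn2 and Sesn3 by -0.15 and -0.22 (adjusted p = 0.681 and 0.216). Bok, a death-promoting relative of Bax, differed by 0.31 (adjusted p = 0.0868).

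**Figure D3:**
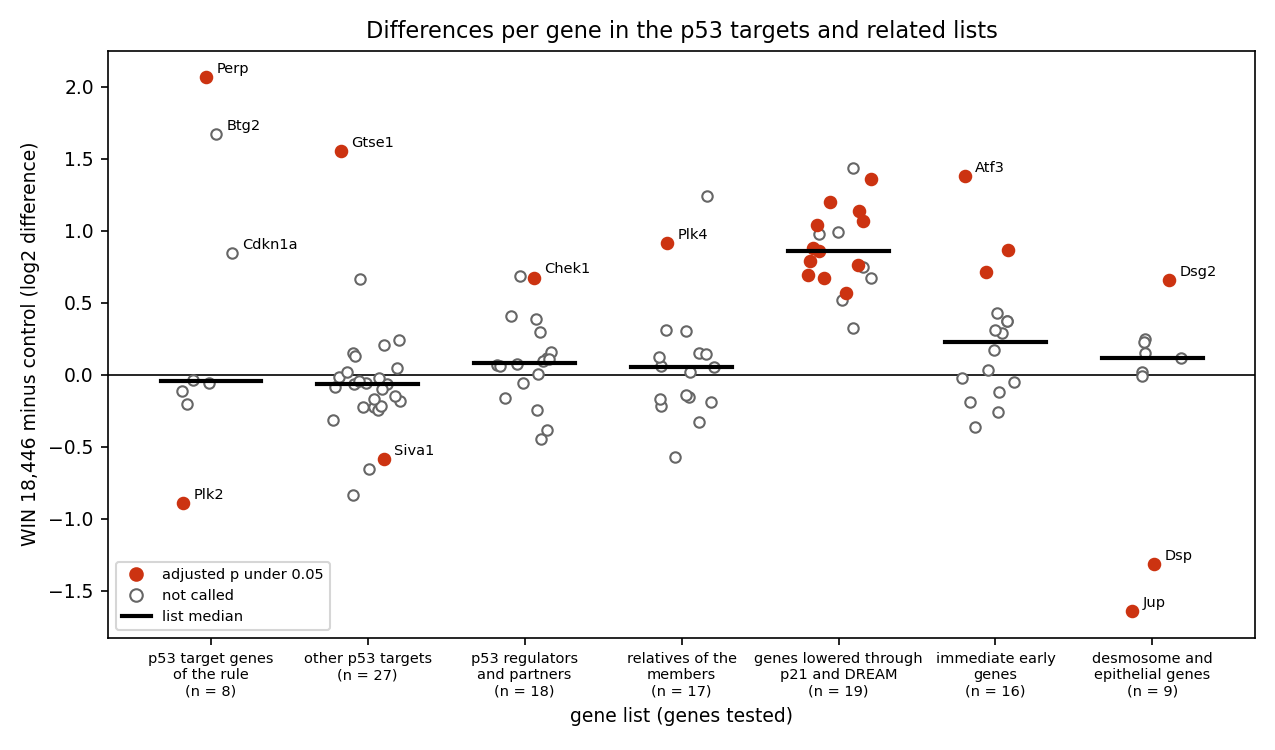
Log2 difference, WIN 18,446 minus control (vertical axis), for each tested gene of the p53 targets and of 6 related lists (horizontal axis), with filled red points for an adjusted p under 0.05 and a bar for each list's median. The p53 targets of the rule and the other p53 targets scatter around 0, while all 19 genes that p21 lowers through the DREAM complex lie above 0.

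p21 is known to lower cell cycle genes through the DREAM repressor complex. Of 20 such genes on a list, 19 were tested; 12 rose, 0 fell and 7 were not called, with a median difference of 0.86. The treated arrays lay above the control arrays for all 19, while 56.6% of all genes tested had groups that did not overlap, in either direction. Cenpf, a kinetochore protein, read 9.44 and 9.78 with vehicle and 10.95 and 10.98 with WIN 18,446 (difference 1.36, adjusted p = 0.0195). Mcm6, a subunit of the replication helicase, differed by 0.57 (adjusted p = 0.0192). Cdkn1a itself, which was not called, differed by 0.85 in the same samples, the same sign as the genes that p21 is known to lower. The p21 protein was not measured, and its action on these genes was not tested. Gtse1, Ckap2, Chek1, Plk4 and Plk1, named above, also peak in dividing cells. The list mean was 10.82 and 11.12 with vehicle and 11.75 and 11.94 after treatment. The part of this shift in the differences of Gtse1, Ckap2, Chek1, Plk4 and Plk1 was not tested.

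Btg2 and Plk2 are also early response genes. Of 19 immediate early genes 16 were tested, of which 3 rose, 0 fell and 13 were not called, with a median difference of 0.23. Over all genes 2.94% were called higher. Those that rose were the stress-induced factor Atf3 (1.38, adjusted p = 0.0376), the zinc finger factor Egr2 (0.86, adjusted p = 0.0376) and the orphan nuclear receptor Nr4a1 (0.71, adjusted p = 0.0419). The list mean was 10.35 and 10.39 with vehicle and 10.51 and 10.72 after treatment. Btg2 differed with the sign of these 3 called genes and Plk2 against it. The 16 tested genes held both signs, with differences from -0.36 to 1.38. Fosb and Fosl1 were below background on all 4 arrays.

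Perp is a desmosome protein, and those of its partners in the junction that were called moved both ways. Of 15 desmosome and epithelial genes 9 were tested; 1 rose, 2 fell and 6 were not called, with a median difference of 0.12. Desmoplakin (Dsp), which ties the desmosome to intermediate filaments, fell from 12.07 and 11.79 to 10.50 and 10.72 (difference -1.32, SE 0.14, adjusted p = 0.0185). Plakoglobin (Jup) fell from 10.05 and 9.99 to 8.07 and 8.69 (difference -1.64, SE 0.24, adjusted p = 0.0302). The desmosomal cadherin Dsg2 rose from 10.48 and 10.60 to 11.20 and 11.20 (difference 0.66, SE 0.10, adjusted p = 0.0369). The desmosome genes Dsc2 and Pkp2 differed by 0.22 and 0.02, with groups that overlapped, and were not called (adjusted p = 0.498 and 0.963, limma). The epithelial genes Epcam, Cdh1, Krt8 and Krt18 differed by -0.01 to 0.25 and were not called. The list mean was 9.86 and 9.83 with vehicle and 9.64 and 9.71 after treatment, and Krt14, Pkp1 and Pkp3 were below background on all 4 arrays.

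**Figure D4:**
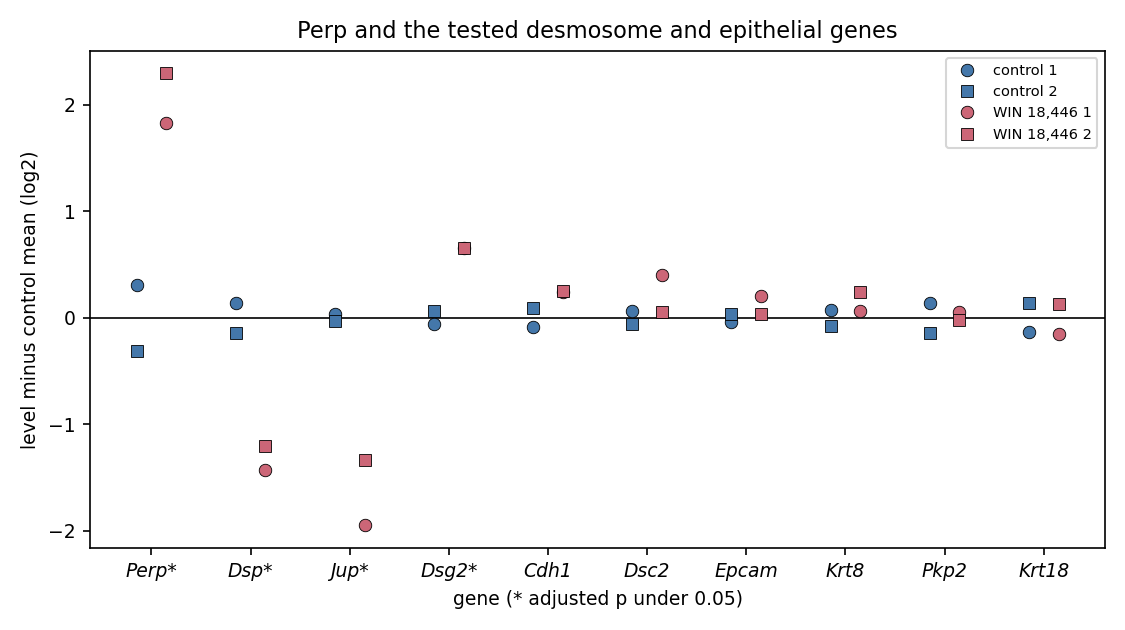
Log2 level minus the control mean of the same gene (vertical axis) for Perp and the 9 tested desmosome and epithelial genes on the 2 control arrays (blue) and the 2 WIN 18,446 arrays (red). Perp and Dsg2 are higher in the treated arrays, Dsp and Jup are lower, and the remaining 6 were not called.

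Markers of other cell types moved in the same samples. Of 8 Sertoli cell markers 6 fell, among them Cldn11 (-1.25, adjusted p = 0.00781) and Sox9 (-1.15, adjusted p = 0.0121). The other two were not called: Amh differed by 1.25 (adjusted p = 0.0575, groups not overlapping) and Gata4 by 0.02. Of 4 tested myeloid markers S100a8 and S100a9 fell (-6.06 and -5.12, adjusted p = 0.0257 and 0.0351). Lyz2 and C1qb were not called (-0.62 and -0.19, adjusted p = 0.249 and 0.827, limma), and the C1qb groups overlapped. The list mean was 10.94 and 11.22 with vehicle and 7.24 and 8.92 after treatment, a fall carried mainly by S100a8 and S100a9. C1qa was below background. The endothelial marker Robo4 fell (-1.01, adjusted p = 0.0435), with a list mean over 4 tested of 7 markers of 8.75 and 8.87 against 7.96 and 7.84. The other 3 tested were not called. All 4 were lower without overlap of the groups, with differences from -1.17 to -0.66. Of 7 tested germ cell markers Sall4 fell (-0.60, adjusted p = 0.0157); the other 6, which were not called, had positive differences of 0.02 to 0.43, and the list's median was 0.24. Des fell among 6 peritubular and stromal markers (-1.47, adjusted p = 0.0349), with list means of 12.55 and 12.69 against 12.19 and 12.23, and 0 of 4 Leydig cell markers were called by limma (2 at an unadjusted p under 0.05), with list means of 12.15 and 11.77 against 11.74 and 11.46. Of the red blood cell markers 1 was tested, Hbb-b2, at 10.53 and 10.38 against 8.62 and 9.45; the groups did not overlap and the difference of -1.42 was not called (adjusted p = 0.0618). Alas2 and Hba-a1 were below background. The part of these cell types in the differences of Perp, Plk2, Btg2 and Cdkn1a was not tested.

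**Figure D5:**
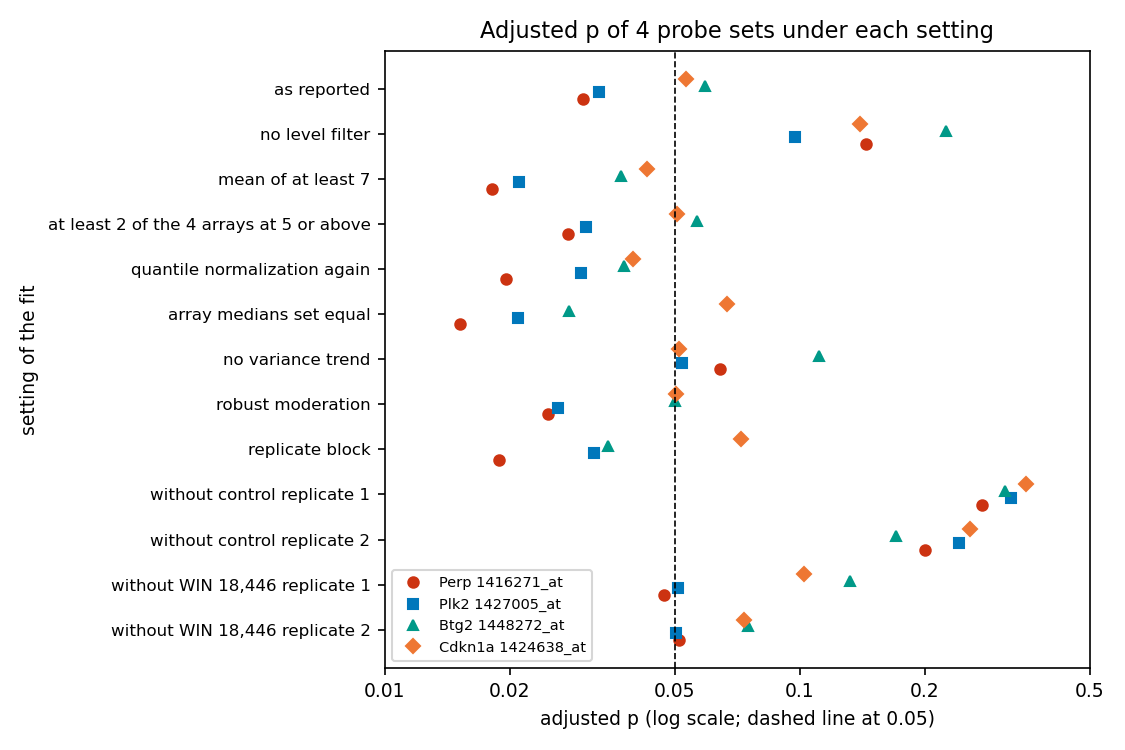
Adjusted p (horizontal log axis, dashed line at 0.05) of the Perp, Plk2, Cdkn1a and brighter Btg2 probe sets under each setting of the fit (vertical axis). Perp and Plk2 lie left of the line in the reported fit and in 6 of the 8 alternatives that kept all 4 arrays, and all 4 probe sets lie right of it when either control array is left out.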

How the data were processed

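The table the authors deposited gives a log2 level per probe set for each array, already normalized between arrays. RMA and GCRMA, which correct background, normalize and summarise probes, stand in the submitters' processing notes, and which of them made the table is not given in the sources used here. The log2 scale was read from the values, which reach 16.2. Genes were named by GEO's array annotation. The 64 control probe sets were left out, and the 20895 others with a mean of at least 5 were fitted with limma 3.58.1 in R 4.3.3 (lmFit, eBayes with a variance trend, 2-sided, adjusted over all of them), with 2 residual degrees of freedom and 3.19 prior ones. No exact permutation test is given, since its smallest p with 2 arrays a group is 0.333. Intervals are 95% intervals of the fit, and the number of arrays limits their precision. The fit was tested on simulated data. In gene lists a gene is represented by its brightest tested probe set. The members and lists were chosen with earlier results of these data known. All members are named, and of each list other than the cell type markers up to 6 called genes by smallest p, filled to 3 with the next by p where fewer were called; relatives of the members may all be named, and other names, the cell type markers among them, were chosen after their values were seen. Alternatives were the level filter, scaling, moderation, a block for the replicate number, leaving out each array (a group of 1 array then takes its spread from the other pair), an adjusted p under 0.10 and, for the other p53 targets, the mean of a gene's probe sets.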

Additional observations from a re-analysis of the deposited data

How the results depend on the processing

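Counts of calls were small and moved with the settings, while directions mostly held. With limma, 1 member probe set was called higher, 1 lower and 2 other p53 targets in all. With no level filter these counts were 0, 0 and 0 (7 member probe sets and 9 other targets at an unadjusted p under 0.05). With no variance trend they were also 0, 0 and 0 (7 and 4 at an unadjusted p under 0.05). Over the whole array these settings called 3 of 45037 and 372 of 20895 probe sets, against 1083 in the reported fit. Calls thus fell over the whole array as well. With no variance trend 372 remained, so that fit does not show whether the loss was particular to the members. With no filter more probe sets were tested, and the unadjusted p of Perp also changed, from 0.000785 to 0.0037 (limma). The cause of the lost calls was not tested for either setting. The count called higher was 3 with a mean of at least 7 and with quantile normalization again, 2 with array medians set equal and with robust moderation, and 3 at an adjusted p under 0.10, where 2 were lower. Apart from the looser threshold, these settings called 1229 to 1323 probe sets over the whole array. Whether samples of the same number were paired is not given in the labels. Their deviations from the group means correlated with r = 0.014 over 20895 probe sets, which does not settle it. With the replicate number as a block, 2 were called higher, 1 lower and 3 other targets, of 1467 over the whole array. With 1 array left out, 0 to 1 were called higher, 0 to 1 lower and 0 to 2 other targets (5 to 7 member probe sets and 3 to 6 other targets at an unadjusted p under 0.05); without either control array limma called 0 of all 20895 probe sets (2455 and 2820 at an unadjusted p under 0.05). Array medians set equal shifted the median of all probe sets to -0.06. Signs turned only among values near 0 when 1 array was left out: from -0.16 to 0.085 for the brightest probe set of Ccng1, from -0.10 to 0.22 for its dimmest, and from -0.11 to 2.55e-05 for Trp53inp1.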
